A study of Mus musculus with 12 samples.

Results

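The 10 genes described here are ones that fibroblasts are known to express: Dcn, Lum, Bgn, Postn, Tnc, Thy1, Fap, Lox, Mmp2 and Mmp3. They were chosen by name, and the choice asks whether arrays of undifferentiated stem cells carry a fibroblast signal. Each gene was represented by the probe set that carried its symbol alone and had the highest mean over all 12 arrays. All 10 genes were found among 19938 genes measured, and each had 1 such probe set.

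The arrays held total RNA of mouse cells in 4 groups of 3 replicates. The first group was induced pluripotent stem cells (iPSCs) that had differentiated spontaneously until day 4, and the second was cells from iPSCs after a cardiac differentiation, also at day 4, which the labels call optimized. The third was a day 4 population from iPSCs enriched for cardiac progenitor cells (CPCs) by flow cytometry on 2 surface receptors, FLK1 (the product of Kdr) and PDGFRα (the product of Pdgfra). The fourth, the study's control, was undifferentiated iPSCs at day 0. The labels name no strain, transgene or agent, they do not say how the iPSCs were maintained or whether fibroblast feeder cells were present, and they do not say that replicates came from separate cultures. The p-values therefore measure the spread between these arrays, which may be technical.

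Fibroblasts build and remodel the connective tissue matrix. Dcn (decorin), Lum (lumican) and Bgn (biglycan) are small leucine-rich proteoglycans that bind collagen and shape its fibrils. Postn (periostin) and Tnc (tenascin C) are matricellular proteins, which sit in the matrix and act on cells through integrins. Thy1 and Fap are surface proteins used as fibroblast markers, though Thy1 also marks T cells and neurons. Lox cross-links collagen and elastin, Mmp2 digests basement membrane collagen and gelatin, and Mmp3 (stromelysin 1) digests proteoglycans and activates other metalloproteinases. Mouse embryonic fibroblasts that no longer divide are a common support layer for mouse pluripotent cells, so RNA of such cells is a question that day 0 arrays raise in general.

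The values are log2 signals after the RMA normalization, and the number of arrays limits their precision. Replicates correlated at 0.989 or more among the iPSC arrays and at 0.9656 or more in each day 4 group. The library labelled cardiac replicate 1 and the libraries labelled sorted CPC replicates 2 and 3 stood apart from their groups. Kdr had 9.83, 10.71 and 10.27 in the spontaneous arrays, 5.42, 10.81 and 9.01 in the cardiac arrays and 10.23, 6.25 and 6.03 in the sorted CPC arrays, against 5.50, 5.54 and 5.78 in the iPSC arrays. Pdgfra had 11.13, 8.47 and 8.29 in the sorted CPC arrays, against 8.75, 9.14 and 8.81 in the iPSC arrays. Both libraries labelled sorted CPC replicates 2 and 3 therefore lay below every iPSC array in a receptor used for the sort, and the calls of the 10 genes are also given without these 3 libraries. Pou5f1, the core pluripotency factor, had 11.24, 11.31 and 11.57 in the iPSC arrays. As a mark of dim signal, the 95th percentile of 1210 olfactory and vomeronasal receptor probe sets was taken on each array. It ran from 5.35 to 5.91 over the day 4 arrays and from 5.57 to 5.69 over the iPSC arrays.

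Upstream sequence is shown for the 3 genes among those that fell at day 4 that matched the RefSeq promoter table (build GRCm38.p6), so that a reader can see the sequence at which their transcription starts. Each run gives the 250 bases before the start, on the gene's strand. For Mmp3 this is chr9:7445572-7445821 on the plus strand, for Bgn chrX:73483351-73483600 on the plus strand, and for Tnc the first of 2 listed starts, chr4:64047016-64047265 on the minus strand. Capitals mark matches to the AP-1 motif TGANTCA and the TATA motif TATAAA, each searched on both strands, and the motifs do not overlap in these runs.
Mmp3: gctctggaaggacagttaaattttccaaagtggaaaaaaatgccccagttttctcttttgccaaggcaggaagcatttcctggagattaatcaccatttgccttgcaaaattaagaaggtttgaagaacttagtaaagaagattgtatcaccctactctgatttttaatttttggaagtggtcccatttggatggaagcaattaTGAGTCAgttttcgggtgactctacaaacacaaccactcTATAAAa
Bgn: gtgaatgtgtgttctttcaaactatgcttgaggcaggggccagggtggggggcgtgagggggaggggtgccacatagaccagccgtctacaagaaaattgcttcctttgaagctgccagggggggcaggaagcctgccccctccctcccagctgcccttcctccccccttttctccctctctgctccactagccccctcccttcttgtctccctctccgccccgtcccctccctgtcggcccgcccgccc
Tnc: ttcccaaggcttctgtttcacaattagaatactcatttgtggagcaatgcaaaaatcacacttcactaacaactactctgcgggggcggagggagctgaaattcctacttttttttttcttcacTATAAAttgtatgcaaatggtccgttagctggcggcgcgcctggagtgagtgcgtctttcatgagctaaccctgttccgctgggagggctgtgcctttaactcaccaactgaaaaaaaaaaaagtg
The Mmp3 run held 1 AP-1 match, 46 to 40 bases before the start, and 1 TATA match, 7 to 2 bases before it. The Tnc run held 1 TATA match 126 to 121 bases before the start, and the Bgn run held neither motif. Among 32851 promoters of 27025 genes in the table, 6.75% held the AP-1 motif and 12.4% held the TATA motif in a window of the same length. Postn, the other gene with an entry among the 10, had no match before the first of its listed starts and a TATA match 26 to 21 bases before the second.

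Across the 10 genes, 5 fell at day 4 when the mean of the 3 day 4 groups was set against the iPSCs: Dcn, Bgn, Tnc, Lox and Mmp3. Calls required an adjusted p below 0.05 together with a log2 difference of at least 1 in size, and 1.4% of all genes were called lower in this comparison. None of the 10 was called higher, against 1.46% of all genes. At any size of difference, 7 of the 10 passed the adjusted p with lower values at day 4, against 5.61% of all genes, and Postn and Thy1 were the other two. Lum, Fap and Mmp2 did not pass. The same 7 genes were those in which all 3 iPSC arrays lay above all 9 day 4 arrays, a pattern that 5.15% of all genes showed. The median difference over the 10 genes was -0.90, against -0.02 over all genes. The 3 comparisons of single day 4 groups with day 0 share the same iPSC arrays, so they are not independent of each other. In bulk RNA, fewer cells of a type and less RNA per cell cannot be told apart.

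Dcn had 5.96, 5.66 and 5.80 in the spontaneous arrays, 6.13, 5.78 and 6.33 in the cardiac arrays and 5.60, 5.84 and 5.66 in the sorted CPC arrays, against 8.39, 6.95 and 8.27 in the iPSC arrays. Every iPSC array lay above every day 4 array, and iPSC replicate 2 was the nearest to them. Over the day 4 groups together Dcn was 4.02-fold lower than in iPSCs (log2 difference -2.01, SE 0.24, limma adjusted p = 0.000238). This was the largest difference among the 10 genes. Dcn was 4.18-fold lower in spontaneous cells (-2.06, SE 0.29, adjusted p = 0.00138), 3.45-fold lower in cardiac cells (-1.79, adjusted p = 0.00391) and 4.49-fold lower in sorted CPCs (-2.17, adjusted p = 0.00143). The call held with any 1 array left out, and without the 3 libraries that stood apart the difference over all day 4 groups was -2.05 (adjusted p = 0.000265). Dcn lay above the dim mark on 3 of 3 spontaneous, 3 of 3 cardiac and only 1 of 3 sorted CPC arrays, against 3 of 3 iPSC arrays. In sorted CPCs its fold is therefore that of a signal near the lower limit of the measurement. Spontaneous replicate 2, at 5.66, was also only just above its mark of 5.54.

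Bgn, the second proteoglycan and a close relative of Dcn, moved the same way. It had 6.35, 6.83 and 6.70 in the spontaneous arrays, 5.68, 6.76 and 5.92 in the cardiac arrays and 5.91, 5.52 and 6.74 in the sorted CPC arrays, against 8.82, 7.38 and 7.87 in the iPSC arrays. The day 4 and iPSC arrays did not overlap, and iPSC replicate 2 was again the nearest to the day 4 arrays. Bgn was 3.37-fold lower over the day 4 groups together (log2 difference -1.75, SE 0.31, adjusted p = 0.0031). In sorted CPCs it was 3.91-fold lower (-1.97, adjusted p = 0.00995), in cardiac cells 3.73-fold lower (-1.90, adjusted p = 0.0117) and in spontaneous cells 2.63-fold lower (-1.39, adjusted p = 0.0352). It lay above the dim mark on all arrays but 2 of the 3 sorted CPC arrays, so the sorted CPC fold is that of a signal near the lower limit of the measurement. The spontaneous call was lost without iPSC replicate 1 (-0.995, adjusted p = 0.148), without iPSC replicate 3 and without any of the 3 spontaneous replicates, and the cardiac call was lost without iPSC replicate 1 (-1.50, adjusted p = 0.0504).

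Lum showed no such difference. It had 3.33, 3.25 and 3.22 in the spontaneous arrays, 3.29, 3.33 and 3.12 in the cardiac arrays and 3.46, 3.27 and 3.36 in the sorted CPC arrays, against 3.21, 3.26 and 3.26 in the iPSC arrays. All 12 values lay within 0.34 of each other, and none was above the dim mark of its array. The difference over the day 4 groups together was 0.05 (95% interval -0.08 to 0.18, adjusted p = 0.683). No difference was detectable at this level, where a small amount of Lum RNA would not be seen.

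Other small leucine-rich proteoglycans, such as Ogn, Podn and Nyx, were described as a list. Of 12 measured members, 8 were above the dim mark on no array, so a difference in them could hardly be seen. None of the 12 was called lower or higher at day 4, where 1.4% and 1.46% of all genes were. Their median difference was -0.08. At any size of difference 5.61% of all genes passed the adjusted p with lower values. Ogn (osteoglycin), named after its values were seen, was the 1 member past the adjusted p, with a difference of -0.54 (adjusted p = 0.00656), and it was above the dim mark on no array. Podn (podocan) differed by 0.16 (adjusted p = 0.529), and Nyx (nyctalopin) by -0.06 (adjusted p = 0.855). The summed linear signal of the list ran from 688 to 785 in spontaneous, 594 to 787 in cardiac and 757 to 916 in sorted CPC arrays, against 761 to 827 in iPSC arrays.

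**Figure D1:**
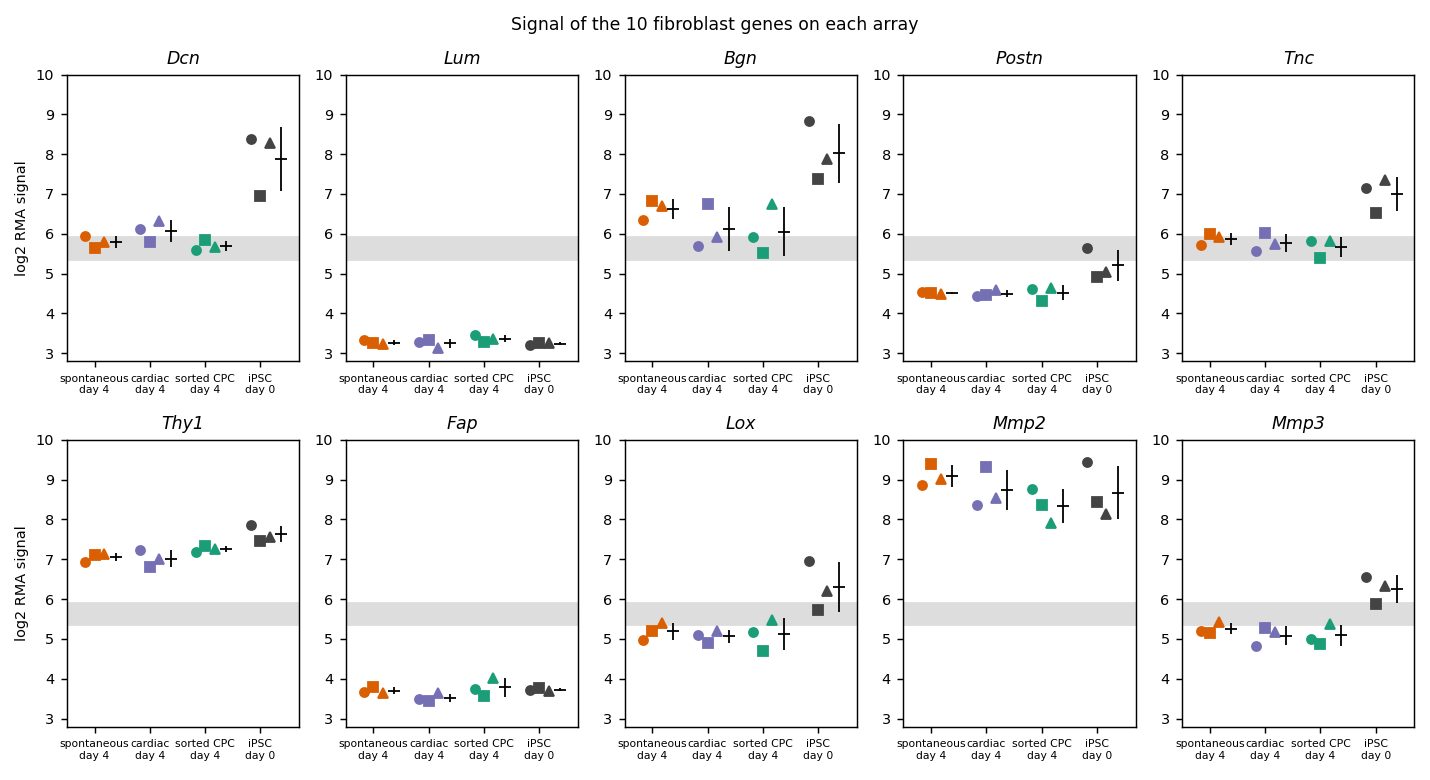
Log2 RMA signal of each of the 10 genes (vertical axis) on each array, with the spontaneous, cardiac and sorted CPC day 4 groups left of the iPSC day 0 group. Points are arrays with 1 marker shape per replicate number, bars are the mean ± SD of 3 arrays, and the grey band is the range of the dim mark over arrays, from 5.35 to 5.91. Dcn, Bgn, Tnc, Lox, Mmp3, Postn and Thy1 have all 3 iPSC points above all 9 day 4 points, whereas Lum and Fap lie under the band in every group.

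Both matricellular genes had their highest values at day 0. Tnc had 5.71, 5.99 and 5.93 in the spontaneous arrays, 5.57, 6.02 and 5.74 in the cardiac arrays and 5.81, 5.39 and 5.81 in the sorted CPC arrays, against 7.14, 6.51 and 7.35 in the iPSC arrays. The ranges did not overlap, and the day 4 values were close together. Tnc was 2.34-fold lower over the day 4 groups (log2 difference -1.22, SE 0.17, adjusted p = 0.000543). It was called in sorted CPCs (-1.33, adjusted p = 0.00277), in cardiac cells (-1.22, adjusted p = 0.00409) and in spontaneous cells (-1.12, adjusted p = 0.00515). Tnc lay above the dim mark on 1 of 3 sorted CPC arrays and on all other arrays. The spontaneous difference fell short of the minimum size without iPSC replicate 3, at -0.95.

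Postn had 4.55, 4.50 and 4.50 in the spontaneous arrays, 4.45, 4.46 and 4.59 in the cardiac arrays and 4.61, 4.30 and 4.65 in the sorted CPC arrays, against 5.64, 4.93 and 5.05 in the iPSC arrays. The iPSC arrays were again all above the others, with replicate 1 well above replicates 2 and 3. The difference over the day 4 groups was -0.69 (SE 0.13, adjusted p = 0.00404), which passed the adjusted p but not the minimum size. Postn was above the dim mark on 1 of 3 iPSC arrays and on 0 of 9 day 4 arrays, so its level stood at or under that mark in most samples.

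In the list of other matricellular genes, 0 of 12 measured members were called, where 1.4% of all genes were called lower and 1.46% higher. The median difference was -0.09, and the count called lower changed without the 3 libraries that stood apart. Tgfbi, a secreted protein induced by TGF-beta and named after its values were seen, differed by -0.74 (adjusted p = 0.00359). Sparc, which binds collagen in the matrix, differed by -0.05 (adjusted p = 0.943), and Thbs1 (thrombospondin 1) by -0.56 (adjusted p = 0.695). The summed signal ran from 2750 to 3560 in spontaneous, 2490 to 4810 in cardiac and 1900 to 6350 in sorted CPC arrays, against 3040 to 3600 in iPSC arrays, with overlap between all groups.

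Among the surface proteins, Thy1 had 6.94, 7.10 and 7.12 in the spontaneous arrays, 7.24, 6.81 and 6.995 in the cardiac arrays and 7.18, 7.32 and 7.25 in the sorted CPC arrays, against 7.87, 7.47 and 7.56 in the iPSC arrays. All arrays were above the dim mark, and the iPSC arrays lay above the rest by a small margin. The difference over the day 4 groups was -0.53 (SE 0.12, adjusted p = 0.0122), again under the minimum size. Without iPSC replicate 1 it no longer passed the adjusted p (-0.41, adjusted p = 0.0982). In sorted CPCs alone the difference was -0.38 (adjusted p = 0.167).

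Fap, a membrane peptidase of activated fibroblasts, had 3.66, 3.80 and 3.65 in the spontaneous arrays, 3.49, 3.45 and 3.64 in the cardiac arrays and 3.75, 3.57 and 4.02 in the sorted CPC arrays, against 3.71, 3.77 and 3.69 in the iPSC arrays. The groups overlapped, and no array lay above the dim mark. The difference was -0.06 (95% interval -0.24 to 0.13, adjusted p = 0.758). As for Lum, the level was too low to show a small difference.

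The 3 matrix enzymes split. Lox had 4.97, 5.21 and 5.40 in the spontaneous arrays, 5.10, 4.89 and 5.21 in the cardiac arrays and 5.18, 4.69 and 5.48 in the sorted CPC arrays, against 6.96, 5.73 and 6.21 in the iPSC arrays. Mmp3 had 5.20, 5.16 and 5.42 in the spontaneous arrays, 4.81, 5.27 and 5.17 in the cardiac arrays and 5.01, 4.87 and 5.39 in the sorted CPC arrays, against 6.55, 5.88 and 6.34 in the iPSC arrays. Both genes were above the dim mark on all 3 iPSC arrays and on 0 of 9 day 4 arrays.

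Lox, the collagen cross-linking enzyme, fell at day 4 (log2 difference -1.17, SE 0.22, adjusted p = 0.004). Mmp3, the stromelysin, fell by 1.11 on the log2 scale (SE 0.15, adjusted p = 0.000541). Because no day 4 array was above the dim mark, the fold is a bound: with each day 4 array set to its dim mark where its value was lower, Lox was at least 1.64-fold lower (measured means 5.13 at day 4 and 6.30 at day 0) and Mmp3 at least 1.59-fold lower (5.14 and 6.26). Both were called in cardiac cells (Lox -1.23, adjusted p = 0.0172, and Mmp3 -1.17, adjusted p = 0.00298) and in sorted CPCs (Lox -1.18, adjusted p = 0.0214, and Mmp3 -1.17, adjusted p = 0.00329). In spontaneous cells Lox was called (-1.11, adjusted p = 0.0196), whereas Mmp3 was just under the minimum size (-0.998, adjusted p = 0.00567). Both calls over all day 4 groups were lost without iPSC replicate 1, where Lox differed by -0.84 (adjusted p = 0.0263) and Mmp3 by -0.97 (adjusted p = 0.00656). With 1 array left out the Lox call was lost in 3 of 6 fits for spontaneous cells, 2 of 6 for cardiac cells and 3 of 6 for sorted CPCs. Without iPSC replicate 1 Lox differed by -0.78 in spontaneous cells (adjusted p = 0.0718), -0.90 in cardiac cells (adjusted p = 0.0559) and -0.85 in sorted CPCs (adjusted p = 0.0783). The other losses were without spontaneous replicate 1 (adjusted p = 0.0737) or 2 (0.0696), cardiac replicate 2 (0.0727), and, for sorted CPCs, iPSC replicate 3 (0.0529) or sorted CPC replicate 2 (0.0672). Without sorted CPC replicates 2 and 3 and cardiac replicate 1 the sorted CPC call of Lox was also lost (-1.12), with 1 array left in that group.

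Mmp2 was bright on every array and did not separate the groups. It had 8.86, 9.39 and 9.02 in the spontaneous arrays, 8.37, 9.31 and 8.54 in the cardiac arrays and 8.77, 8.36 and 7.91 in the sorted CPC arrays, against 9.43, 8.44 and 8.15 in the iPSC arrays. The iPSC arrays spanned nearly the whole range of the day 4 arrays. The difference over the day 4 groups was 0.05 (95% interval -0.53 to 0.63, adjusted p = 0.943), so a change of up to that interval in either direction cannot be told from none here.

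**Figure D2:**
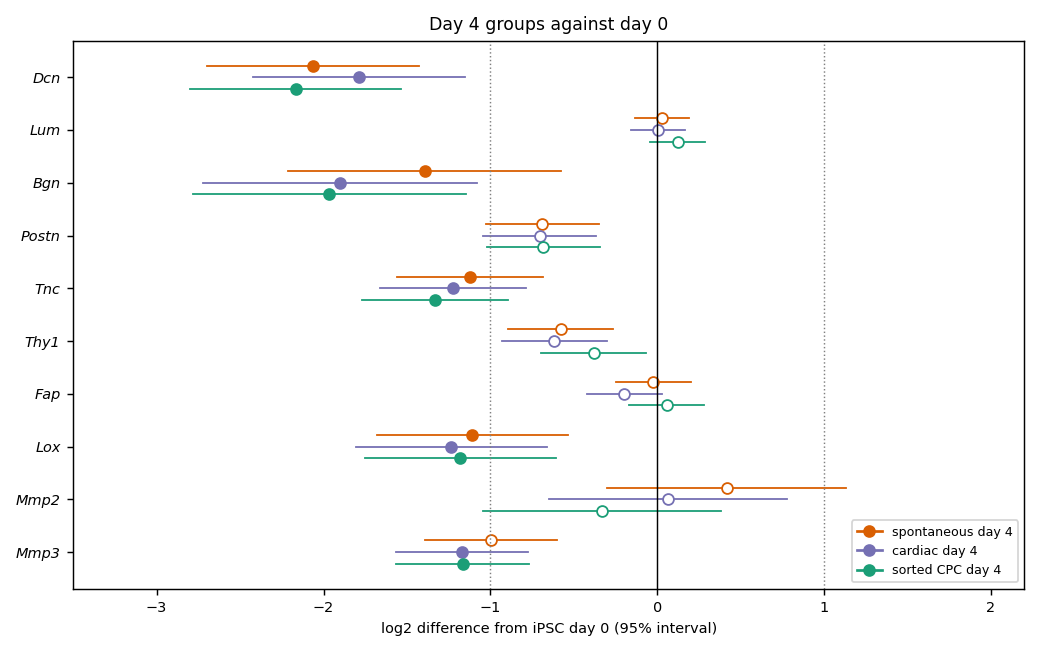
Log2 difference of each of the 10 genes (horizontal axis) for spontaneous, cardiac and sorted CPC day 4 cells, each minus iPSC day 0, with 95% intervals. Filled points were called, and dotted lines mark a difference of 1 in size. Dcn lies at -2.06, -1.79 and -2.17 in this order, whereas the intervals of Lum, Fap and Mmp2 include 0 in every comparison.

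Counted by comparison, 4 of the 10 genes were called lower in spontaneous cells (1.57% of all genes), 5 in cardiac cells (0.943%) and 5 in sorted CPCs (1.32%), each against iPSCs. At any size of difference 7, 7 and 6 of the 10 passed the adjusted p with lower values, against 4.29%, 2.8% and 3.31% of all genes. The median differences over the 10 genes were -0.84, -0.94 and -0.93 in this order, against -0.03, -0.05 and 0.03 over all genes. Without the 3 libraries that stood apart the counts were 4, 5 and 4. Over all day 4 groups the same 5 genes were then called, with Bgn at -1.73 (adjusted p = 0.00102), Tnc at -1.14 (adjusted p = 0.000551), Lox at -1.16 (adjusted p = 0.00281) and Mmp3 at -1.09 (adjusted p = 0.000193) beside Dcn. In the 1 sorted CPC array left the differences were -2.27 for Dcn, -2.11 for Bgn, -1.25 for Mmp3 and -1.19 for Tnc. A single array has no spread of its own, so the sorted CPC calls of this fit rest on the spread of the other groups. Without iPSC replicate 1 the counts were 2, 3 and 4, and in spontaneous cells the count was also 2 without iPSC replicate 3, without spontaneous replicate 1 and without spontaneous replicate 2.

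Between the day 4 groups, 0 of the 10 genes were called by limma. The differences ran from -0.51 to 0.28 for cardiac minus spontaneous cells, from -0.39 to 0.26 for sorted CPC minus cardiac cells and from -0.75 to 0.20 for sorted CPC minus spontaneous cells. The largest in size was that of Mmp2 in sorted CPCs against spontaneous cells (-0.75, adjusted p = 0.413). Over all genes 0, 0 and 1 were called in these comparisons (0%, 0% and 0.00502%), while 743, 3135 and 2310 genes had an unadjusted p under 0.05. The few calls over all genes limit what the counts of the 10 can show.

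The iPSC arrays differed among themselves. In 7 of the 10 genes iPSC replicate 2 was the lowest of the 3, and these were the 7 that passed the adjusted p, against 30% of all genes and 27.2% of the 279 genes called lower at day 4. Lists of other kinds were mixed. Replicate 2 was the lowest in 7 of 7 epithelial, 7 of 9 TGF-beta, 6 of 8 smooth muscle and 5 of 7 proliferation genes. It was the lowest in 4 of 13 pluripotency, 2 of 8 endothelial, 1 of 8 parietal endoderm and 1 of 6 visceral endoderm genes. Replicate 1 was the highest in 7 of the 10, against 33.2% of all genes and 44.8% of the 279 genes called lower at day 4. Set against the median of the 9 day 4 arrays, Dcn was higher by 2.59 in replicate 1, 1.15 in replicate 2 and 2.47 in replicate 3. Bgn was higher by 2.47, 1.03 and 1.52 in the same order, and Lox by 1.78, 0.54 and 1.03. These values describe 3 arrays, with no test. The differences of replicate 1 from replicate 2 were 1.44 for Dcn, 1.45 for Bgn, 1.24 for Lox, 0.67 for Mmp3, 0.62 for Tnc and 0.72 for Postn. Mmp2, which did not separate the groups, was also higher in replicate 1 than in replicate 2, by 0.99.

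**Figure D3:**
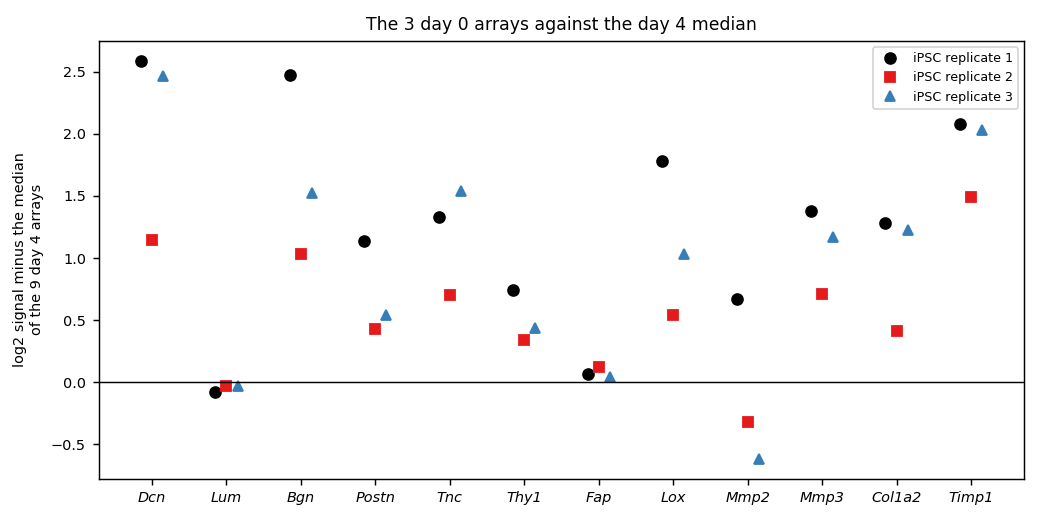
Log2 signal of each iPSC day 0 array minus the median of the 9 day 4 arrays (vertical axis) for the 10 genes and for Col1a2 and Timp1, with 1 marker shape per iPSC replicate. Replicate 2 is the lowest of the 3 in 7 of the 10 genes, for example at 1.15 for Dcn, where replicates 1 and 3 are at 2.59 and 2.47.

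Over the 12 arrays the genes that were higher in iPSCs followed each other. Pearson's r with Dcn was 0.907 for Tnc, 0.903 for Mmp3, 0.889 for Postn, 0.883 for Lox, 0.809 for Thy1 and 0.802 for Bgn. It was 0.0159 for Fap, -0.00589 for Mmp2 and -0.413 for Lum. The points are the 12 arrays, which share the split between day 4 and day 0, and the values are a description.

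Of 4018 genes with a range of at least 1 over the arrays, the 6 most like Dcn by Pearson's r were Cd34 (0.97), Ephx1 (0.963), Calml4 (0.962), Mmrn2 (0.952), Ecm1 (0.945) and Emp1 (0.942). Cd34 encodes a sialomucin of blood progenitors, endothelium and some stromal cells, Ephx1 an epoxide hydrolase, Ecm1 a matrix protein and Emp1 an epithelial membrane protein. Cd34 had 6.05, 6.06 and 6.12 in the spontaneous arrays, 6.46, 5.94 and 6.25 in the cardiac arrays and 6.05, 5.74 and 6.07 in the sorted CPC arrays, against 8.15, 7.16 and 8.77 in the iPSC arrays. As for Dcn, iPSC replicate 2 was the lowest iPSC array and lay above every day 4 array. Because Cd34 was picked by its correlation with Dcn on these same arrays, this likeness is no separate result. The genes most like Lum reached at most 0.786 (Rimbp2, of 4019 genes), and Lum itself varied by only 0.34 over the arrays.

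Wider lists of fibroblast genes had medians nearer to 0 than the 10 genes. For each list below, the shares over all genes were 1.4% called lower and 1.46% called higher over all day 4 groups. At these shares a short list with 0 calls is no result about its genes. Among 9 fibroblast collagens, 1 fell at day 4 and 0 rose, and the median difference was -0.35. At any size of difference 1 passed the adjusted p with lower values, against 5.61% of all genes. In 2 of the 9 all iPSC arrays lay above all day 4 arrays, against 5.15% of all genes. Col1a2, a chain of type I collagen, had 7.36, 7.36 and 7.20 in the spontaneous arrays, 6.99, 6.93 and 7.35 in the cardiac arrays and 7.49, 6.98 and 7.58 in the sorted CPC arrays, against 8.63, 7.76 and 8.57 in the iPSC arrays. It was 2.10-fold lower over the day 4 groups (log2 difference -1.07, SE 0.19, adjusted p = 0.00284), and this call was lost without iPSC replicate 1 (-0.92) or replicate 3 (-0.94). Its partner chain Col1a1 differed by -0.57 (adjusted p = 0.0688) and Col5a1 by 0.05 (adjusted p = 0.866). The summed signal of the collagens ran from 1020 to 1170 in spontaneous, 847 to 1020 in cardiac and 854 to 1270 in sorted CPC arrays, against 1190 to 1590 in iPSC arrays. In 7 of the 9, iPSC replicate 2 was the lowest iPSC array.

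Among 16 other fibroblast matrix and surface genes 1 fell and 0 rose, with a median difference of -0.09. At any size of difference 4 passed the adjusted p with lower values, against 5.61% of all genes, and 0 with higher values. In 3 of the 16 all iPSC arrays lay above all day 4 arrays, against 5.15% of all genes. Timp1, a secreted metalloproteinase inhibitor, had 7.31, 7.38 and 7.38 in the spontaneous arrays, 7.68, 7.30 and 7.38 in the cardiac arrays and 6.24, 7.07 and 7.51 in the sorted CPC arrays, against 9.46, 8.87 and 9.41 in the iPSC arrays. It was 3.99-fold lower over the day 4 groups (-1.998, SE 0.21, adjusted p = 0.000132), close in size to Dcn. Serpinf1, a secreted serpin named after its values were seen, differed by -0.97 (adjusted p = 0.00179), just under the minimum size. Fn1 (fibronectin) differed by 0.41 (adjusted p = 0.683) and was bright in all groups, from 9.51 to 12.52 at day 4 and from 10.47 to 11.47 in iPSCs. The summed signal of this list was higher in spontaneous arrays (11900 to 14100) than in iPSC arrays (8950 to 10500), with 8680 to 13300 in cardiac and 6530 to 13100 in sorted CPC arrays. The brightest genes weigh most in this linear sum: Fn1, Vim and Sparc had means of 11.90, 11.60 and 11.14 in spontaneous arrays. The median log2 difference of the list in spontaneous cells was -0.01. Without the 3 libraries that stood apart Fn1 differed by 1.12 and Pdgfra, also in this list, by 1.46. Pdgfra is a gene by which such libraries were noticed, so its rise is no separate result.

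Transcription factors of fibroblasts were not called, where 1.4% of all genes were called lower and 1.46% higher. Of 10 measured, 0 fell and 0 rose, with a median difference of -0.19, whereas 2 were called higher without the 3 libraries that stood apart. Twist1 differed by 1.12 (adjusted p = 0.113) and Zeb1 by -0.67 (adjusted p = 0.0992), both regulators of mesenchymal state. Without cardiac replicate 1 Twist1 was called higher at day 4 (1.26, adjusted p = 0.0473), and likewise without sorted CPC replicate 3 (1.302, adjusted p = 0.0265). At any size of difference 2 of the 10 passed the adjusted p with lower values, against 5.61% of all genes, and 0 with higher values. Prrx1, a mesenchymal homeobox factor named after its values were seen, differed by -0.56 (adjusted p = 0.02). In Osr2, also named after its values were seen, all iPSC arrays (6.89 to 6.97) lay above all day 4 arrays (5.86 to 6.75). The summed signal ran from 954 to 1200 in spontaneous, 639 to 1180 in cardiac and 767 to 1490 in sorted CPC arrays, against 895 to 977 in iPSC arrays.

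Factors that feeder fibroblasts are known to secrete gave 0 calls in 10 genes, where 1.4% of all genes were called lower and 1.46% higher. Of these factors, 3 were above the dim mark on no array, and the median difference was -0.23. At any size of difference 2 of the 10 passed the adjusted p with lower values, against 5.61% of all genes, and 0 with higher values. Grem1, a BMP antagonist, differed by -0.67 (adjusted p = 0.0375) and Ccl2, a chemokine named after its values were seen, by -0.71 (adjusted p = 0.0136). Csf1, a growth factor of macrophages, differed by -0.25 (adjusted p = 0.655). The summed signal ran from 473 to 511 in spontaneous, 430 to 499 in cardiac and 484 to 621 in sorted CPC arrays, against 498 to 708 in iPSC arrays. In 8 of these 10 genes iPSC replicate 2 was the lowest iPSC array.

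**Figure D4:**
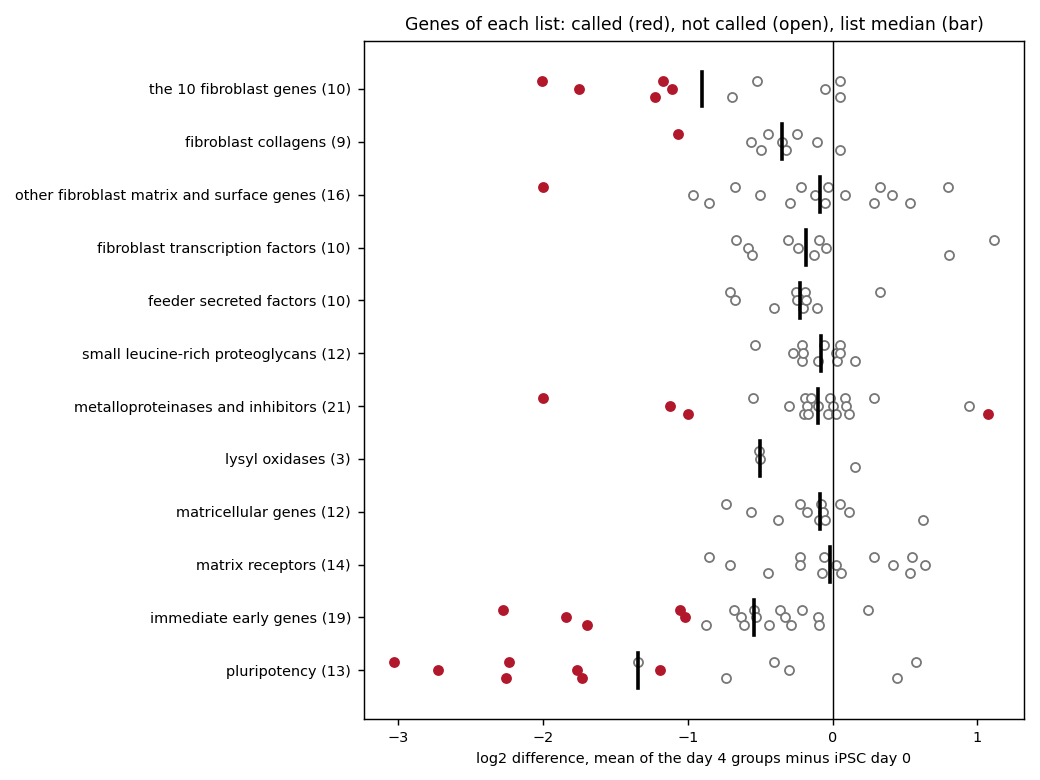
Log2 difference of the day 4 groups together minus iPSC day 0 (horizontal axis) for every measured gene of 11 lists, with the 10 fibroblast genes as a list of their own. Red points were called, open points were not, and the bar is the median of the list, for example -0.90 for the 10 genes, -0.35 for the fibroblast collagens and -0.23 for feeder secreted factors.

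Families of the matrix enzymes and their partners went in both directions. Among 21 other metalloproteinases and inhibitors, 7 of them above the dim mark on no array, 3 fell and 1 rose, with a median difference of -0.10. Timp1 and Mmp11 (stromelysin 3, -1.12, SE 0.13, adjusted p = 0.000169) fell, and Timp2 fell by a margin that depended on the arrays used (-1.001, SE 0.28, adjusted p = 0.0341). The Timp2 call was lost in 8 of the 12 fits that left out 1 array, down to -0.81 (adjusted p = 0.191) without iPSC replicate 1. Mmp14, a membrane-bound activator of Mmp2, rose (1.07, SE 0.24, adjusted p = 0.012), with 9.16, 9.52 and 9.34 in the spontaneous arrays, 8.08, 9.42 and 8.86 in the cardiac arrays and 9.20, 8.51 and 8.57 in the sorted CPC arrays, against 7.83, 7.59 and 8.26 in the iPSC arrays. Its groups overlapped, and the call was lost without iPSC replicate 1 (1.04, adjusted p = 0.0657), iPSC replicate 2 (0.92, adjusted p = 0.0853), cardiac replicate 2 (0.96, adjusted p = 0.0112) or sorted CPC replicate 1 (0.997, adjusted p = 0.0143).

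None of 3 measured lysyl oxidases other than Lox was called, with a median difference of -0.50, and Loxl3 differed by -0.51 (adjusted p = 0.0536). Among 14 matrix receptors 0 were called, where 1.4% of all genes were called lower and 1.46% higher, and the median difference was -0.02. Itgb1, the integrin subunit that pairs with many alpha chains, differed by 0.29 (adjusted p = 0.117). Ddr2, a collagen receptor of fibroblasts named after its values were seen, differed by -0.85 (adjusted p = 0.00026) with no overlap of the groups. In the list of TGF-beta ligands, receptors and targets 0 of 9 were called over all day 4 groups, with a median difference of 0.28. In spontaneous cells 1 of the 9 was called higher: Tgfb2, a ligand (1.85, adjusted p = 0.0188), named after its values were seen. Over all day 4 groups 2 were called higher without cardiac replicate 1, and 1 without spontaneous replicate 1 or without the 3 libraries that stood apart.

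Some markers of other cell states were also lower at day 4. Of 19 immediate early genes, which cells switch on within minutes of a stimulus, 5 fell at day 4 and 0 rose, with a median difference of -0.54. Over all genes 1.4% fell and 1.46% rose. Fosb (-2.28, adjusted p = 0.00012), Socs3 (-1.84, adjusted p = 0.000129) and Fos (-1.70, adjusted p = 0.00012) led, and Egr1 (-1.05, adjusted p = 0.00196) lost its call without iPSC replicate 1 (-0.85, adjusted p = 0.0189) or cardiac replicate 1 (-0.997, adjusted p = 0.00153). By group, 6 of 19 were called lower in spontaneous cells (median -0.83), 5 in cardiac cells (median -0.62) and 2 in sorted CPCs (median -0.17). The shares over all genes were 1.57%, 0.943% and 1.32% in this order. The summed signal of these genes ran from 3540 to 4390 in spontaneous, 4420 to 5020 in cardiac and 4860 to 9330 in sorted CPC arrays, against 7610 to 8690 in iPSC arrays. Their part in the result was not tested.

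Many pluripotency genes also lay higher at day 0. Of 13, 7 fell at day 4, 0 rose and 6 were not called, with a median difference of -1.35. Over all genes 1.4% fell and 1.46% rose. Those that fell were led by Zfp42 (-3.03, adjusted p = 0.0014), Esrrb (-2.73, adjusted p = 0.000494), Klf4 (-2.25, adjusted p = 0.000129) and Klf2 (-2.23, adjusted p = 0.000129). At any size of difference 8 passed the adjusted p with lower values, against 5.61% of all genes, and 1 with a higher value. Pou5f1 was not called, with differences from -0.82 to -0.64 when single arrays were left out. The summed signal of the list ran from 8980 to 12500 in spontaneous, 11800 to 14600 in cardiac and 11000 to 17400 in sorted CPC arrays, against 21000 to 23500 in iPSC arrays. Whether the pluripotent cells themselves carried the RNA of Dcn and the other genes was not tested, and the pluripotency genes and the day 0 label cannot be told apart.

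Among endothelial genes 1 of 8 fell: Pecam1, which mouse pluripotent cells also carry on their surface, was 4.94-fold lower at day 4 (-2.30, SE 0.32, adjusted p = 0.000599). The list's median difference was -0.33, and its summed signal ran from 570 to 682 in spontaneous, 567 to 793 in cardiac and 555 to 655 in sorted CPC arrays, against 1040 to 1190 in iPSC arrays. Of 9 blood and macrophage genes, 7 of them above the dim mark on no array, 0 were called (median -0.13), and 1 was called lower without the 3 libraries that stood apart, with summed signals from 415 to 463 in spontaneous, 433 to 1100 in cardiac and 425 to 580 in sorted CPC arrays, against 599 to 766 in iPSC arrays. Of 8 cartilage and bone genes 0 were called (median -0.14), and of 7 proliferation genes 0 were called (median 0.00). Among 8 smooth muscle and myofibroblast genes 0 fell and 1 rose, with a median of 0.47. Cnn1 (calponin) rose by 1.22 (adjusted p = 0.0097), a call lost without iPSC replicate 2 (1.196, adjusted p = 0.053) or without the 3 libraries that stood apart (0.996, adjusted p = 0.000221), and Acta2 (smooth muscle actin) differed by 0.50 (adjusted p = 0.549). The part of these genes in the result was not tested.

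The lists that mark differentiation rose where they moved. Of 13 genes of nascent and cardiogenic mesoderm 7 rose, with a median of 1.35 and with Eomes up by 3.84 (adjusted p = 0.00074). That count was 3 without iPSC replicate 1 and 4 without iPSC replicate 2 or 3. It was higher without the 3 libraries that stood apart. Those libraries were noticed by their low Kdr, and Kdr is in this list, so the higher count is no separate result. Visceral endoderm had 2 of 6 (median 1.15), 1 without iPSC replicate 1 or 2. Epithelium had 3 of 7 (median 1.03), and parietal endoderm had 1 of 8 (median -0.16), which was 0 without any 1 iPSC replicate and without those 3 libraries. Of the 4 measured sex-linked genes 0 were called, with a median of 0.17. Xist, which is transcribed from an inactive X chromosome, was not above the dim mark on any array, and its difference was -0.09 (adjusted p = 0.684). The Y-linked gene Eif2s3y had 6.68 to 7.81 at day 4, against 6.89 to 7.30 in iPSCs, and differed by 0.32 (adjusted p = 0.343).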

How the data were processed

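Total RNA of 12 mouse cell samples, 3 in each of 4 groups taken from the labels, was measured on 1-colour Affymetrix arrays. Per the submitters' processing notes, the authors made the deposited log2 signals of 35557 probe sets by RMA, with version 1.3.1 of Affymetrix Expression Console. RMA equalises the arrays' distributions, so a shift of most genes would not be seen. No genome build of the probes is named in those notes or the labels.

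The platform annotation, which is old, listed 23410 probe sets, 21789 with 1 symbol and 1621 with several. One probe set per symbol, that with the highest mean, gave 19938 genes. A linear model of all arrays, with 1 mean for each group, was fitted in limma 3.58.1 under R 4.3.3 with an intensity trend (8 residual and 5.01 prior degrees of freedom). Tests were two-sided, with Benjamini-Hochberg adjustment over all genes, and calls needed an adjusted p under 0.05 and a log2 difference of at least 1. The script was tested on simulated data. Intervals are 95%.

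The 10 genes and the 22 lists (223 of 237 genes measured) were chosen with earlier results of these data known, and so were the tests and alternatives. The text names all 10 genes and, per list, some of up to 4 called genes with the largest difference and up to 2 uncalled ones with the highest mean; other genes are marked as named after their values were seen. Timp1, Sparc and Loxl1 stand in 2 lists. Promoters came from RefSeq (GRCm38.p6), with entries for 4 of the 10 genes. Alternatives were the replicate block, no trend, array weights, averaged probe sets, centring, cyclic loess, a filter on dim genes, a fit of only the groups compared, no minimum difference, each array left out, and the 3 libraries that stood apart left out together.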

Additional observations from a re-analysis of the deposited data

Results flagged for a closer look

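Fos, one of the immediate early genes given beside the 10 fibroblast genes, differed between day 4 groups in its distance from day 0. It had 8.30, 8.84 and 8.41 in the sorted CPC arrays, against 6.37, 7.03 and 6.80 in the spontaneous arrays, and 9.34, 9.28 and 8.67 in the iPSC arrays. The sorted CPC minus spontaneous difference was 1.78 (SE 0.21, limma adjusted p = 0.028), the 1 gene called in that comparison, with no overlap between the groups. None of the 10 fibroblast genes was called there. With array weights 0 genes were called for sorted CPCs against spontaneous cells, so the call of Fos was lost. Sorted CPC replicates 2 and 3 are also among the libraries that stood apart from their groups.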

How the results depend on the processing

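Over the 19 calls of the 10 genes in the 4 comparisons with day 0, 318 values under alternatives kept the call in 293 cases, lost it in 25 and reversed in 0. Dcn kept its call in all of them. A filter on dim genes left 2 called genes in each of the 4 comparisons, because Tnc, Lox, Mmp3, Postn, Lum and Fap were then not tested. Leaving out single arrays gave counts from 3 to 5 for all day 4 groups (3 without iPSC replicate 1), 2 to 5 for spontaneous, 3 to 5 for cardiac (3 without iPSC replicate 1) and 4 to 5 for sorted CPCs. In spontaneous cells array weights gave 2 called genes, and no minimum difference gave 7, since Mmp3, Postn and Thy1 were then added. Array weights also took Lox below the minimum size over all day 4 groups (-0.97). Differences near 0 changed sign without being called. For Mmp2 over all day 4 groups the value was -0.00097 after cyclic loess and ran from -0.22 to 0.43 with single arrays left out. For Mmp2 in cardiac cells it was -0.040 with array weights, -0.023 after cyclic loess and -0.22 to 0.44 with single arrays left out, and in sorted CPCs it was 0.090 without the 3 libraries that stood apart and -0.60 to 0.047 with single arrays left out. For Lum it was -0.045 with array weights and -0.018 without those 3 libraries in cardiac cells, with -0.038 to 0.065 for single arrays left out, and -0.0050 to 0.052 in spontaneous cells. For Fap in spontaneous cells it was 0.050 with centred arrays, 0.019 after cyclic loess and -0.072 to 0.0037 with single arrays left out, and in sorted CPCs it ran from -0.064 to 0.16. The cause was not tested. Without the 3 libraries the sorted group held 1 array, which was assumed to vary like the other groups. Between day 4 groups 0 of the 10 were called under any alternative, and the lowest adjusted p was 0.0709. Without the 3 libraries 115 genes were called for sorted CPCs against cardiac cells and 110 against spontaneous cells, where 0 and 1 were called with them. Without iPSC replicate 1 the genes called numbered 430 over all day 4 groups, 284 in cardiac cells and 294 in sorted CPCs, against 571, 439 and 420 with all arrays. Without a minimum difference 2310, 1943, 1231 and 1019 genes passed over all day 4 groups and in spontaneous, cardiac and sorted CPC cells. Counts for the lists moved by over 1.5 times in 48 of 924 values. The replicate numbers did not pair the arrays: 6 of 18 same-number pairs correlated over 0.1, from -0.382 to 0.307. With the replicate number as a block the counts were 5, 3, 5 and 5 in the same order, and the one lost call was Bgn in spontaneous cells (-1.39, adjusted p = 0.0563). Signal near the dim mark limits Lum, Fap and Postn in all groups and Lox and Mmp3 at day 4. It also limits Dcn, Bgn and Tnc in sorted CPCs. Some other day 4 values were only just above their mark and limit the folds there too. Dcn had 5.66 in spontaneous replicate 2 (mark 5.54). In cardiac replicate 1 (mark 5.53) Bgn had 5.68 and Tnc 5.57.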
